A study of Sus scrofa with 2 samples.

Results

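In the pig endometrium, the mucosa of the uterus, a small set of cells carried the transcript of IL7R and of the pan-leukocyte gene PTPRC but none of 3 cytotoxic lymphocyte genes. Barcodes were selected on raw UMIs, counts of distinct captured transcripts. A barcode needed at least 1 UMI of PTPRC and of IL7R, and 0 UMIs of CCL5, KLRK1 and XCL1, of the macrophage genes C1QA and C1QB, of the B cell gene CD79A and of MMRN1. The rule kept 166 of 15093 barcodes in library 2 and 130 of 10045 barcodes in library 1. Both libraries came from Yorkshire sows, 3 years old and pregnant after artificial insemination, and the study set the receptive endometrium (1 sow at day 13 of gestation) against the pre-receptive endometrium (1 sow at day 7). The matrix of library 2 was deposited under the name ER and that of library 1 under the name Pre-ER, whereas the sample titles give only the numbers 2 and 1. Tissue was dissociated with collagenase and dispase, red cells were lysed, and 3' transcript ends were captured with the 10x droplet system. Each group held 1 library from 1 animal, so the libraries were compared without a test, and intervals cover counting error only.

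IL7R encodes the alpha chain of the interleukin 7 receptor, which pairs with the common gamma chain and signals through JAK1, JAK3 and STAT5. In mouse and human, interleukin 7 keeps naive and memory T cells alive, and innate lymphoid cells depend on it too, whereas most killing lymphocytes carry little of the receptor. PTPRC encodes CD45, a phosphatase of all nucleated blood cells. In the uterus natural killer cells are the best known lymphocytes, and helper-type T cells and innate lymphoid cells are fewer.

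The selected cells were shallow, with a median of 2243 UMIs per cell (612 to 27021) in library 2 and 1593.5 (508 to 14351) in library 1, against 4381 and 3501 UMIs in barcodes without PTPRC. They held 735061 UMIs in library 2 and 306671 in library 1. A few deep cells weighed heavily in these sums. Over 2% of the UMIs lay in marker genes of epithelium, stroma, muscle and endothelium in 19 of 166 cells of library 2 and 10 of 130 cells of library 1, and those cells held 28.4% and 23.1% of all UMIs of the selected cells. Doublets were called in 42 cells of library 2 (25.3%, 18.9 to 32.6%) and 22 cells of library 1 (16.9%, 10.9 to 24.5%) and were kept. Over all barcodes the shares were smaller, with 2415 of 15093 in library 2 and 1107 of 10045 in library 1. The interval of the selected cells includes the share of all barcodes in library 1 but not in library 2. The part of doublets in the selection was not tested. Of the barcode sequences, 48 occurred in both libraries, none of them among the selected cells.

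**Figure D1:**
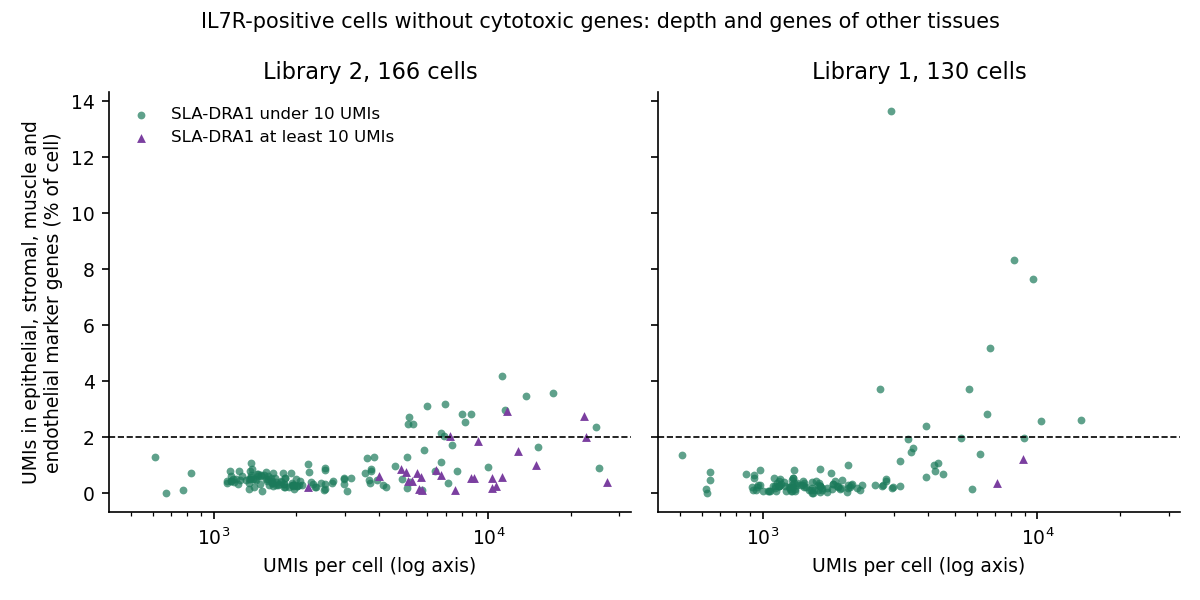
Each point is 1 of the 166 cells of library 2 (left) or the 130 cells of library 1 (right). The horizontal axis gives UMIs per cell on a log scale, the vertical axis the percentage of the cell's UMIs in marker genes of epithelium, stroma, muscle and endothelium, and the dashed line the limit of 2%. Most cells lie below the line, and the cells above it are mainly deep ones. Triangles mark cells with at least 10 UMIs of the MHC class II gene SLA-DRA1, which number 27 in library 2 and 2 in library 1.

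The selected cells made up 1.10% of library 2 (95% Clopper-Pearson interval 0.940 to 1.28%) and 1.29% of library 1 (1.08 to 1.53%). The intervals overlap. Requiring at least 2 UMIs of IL7R left 0.590% of library 2 and 0.767% of library 1, and requiring 0 UMIs of every listed cytotoxic gene left 0.278% and 0.358%. Cells with exactly 1 UMI of IL7R, just inside the rule, numbered 77 in library 2 and 53 in library 1. RAC2 was detected in 71.4% and 75.5% of these, and CD3D in 35.1% and 39.6%. Cells just outside it, with PTPRC but no IL7R, numbered 910 and 227 and had RAC2 in 35.8% and 48.5% and CD3D in 6.70% and 12.8%. Only 15 and 7 cells were left out by exactly 1 UMI of the 3 cytotoxic genes. Among barcodes with at least 100 UMIs of stromal markers, which should lack both genes, IL7R was seen in 2.72% (library 2, median 5943 UMIs) and 1.63% (library 1, median 5205.5 UMIs) and PTPRC in 8.59% and 3.25%, and 17 of 166 and 8 of 130 selected cells were among these stromal barcodes. The part of transcripts from other cells in the selection was not tested.

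Levels are UMIs of a gene per 1000000 UMIs of the summed cells (CPM). IL7R, used for selection, stood at 532 CPM in library 2 and 1066 CPM in library 1, and PTPRC at 748 and 1053 CPM. RAC2, a small GTPase of blood cells that the rule did not use, was found in 75.3% of cells in library 2 and 84.6% in library 1, at 435 CPM (95% Poisson interval 389 to 486) and 995 CPM (886 to 1113). CD69, a membrane protein of recently activated and tissue-resident lymphocytes, was found in 38.0% and 46.9% of cells. Barcodes without PTPRC had RAC2 in 2.30% and 2.52% and CD69 in 1.56% and 2.48% in spite of their greater depth.

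At least 1 T cell gene was found in most cells, but at least 2 in fewer. Of 16 T cell markers, 6 had a symbol in the files, and CD4, CD3E and the receptor constant regions were not analysed here under a symbol. At least 1 of the 6 was detected in 126 of 166 cells of library 2 (75.9%, 68.7 to 82.2%) and in 78 of 130 cells of library 1 (51.0 to 68.5%). At least 2 were detected in 70 cells of library 2 (42.2%, 34.6 to 50.1%) and in 21 cells of library 1 (16.2%, 10.3 to 23.6%). CD3D, a chain of the T cell receptor complex, was found in 34.9% and 40.0% of cells, against 0.456% and 0.459% of barcodes without PTPRC. LCK, the kinase that starts T cell receptor signalling, was found in 41.6% and 27.7%. Shares of cells with a UMI depend on depth. After thinning each cell to 1000 UMIs, which left out 4 cells of library 2 and 15 of library 1, CD3D was found in 18.5% and 23.5% and LCK in 23.5% and 20.9%. CD8A, the co-receptor of killer T cells, was found in 11.4% and 6.15% of the unthinned cells.

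Killer cell genes outside the rule were present, and the name "without cytotoxic genes" holds for the 3 genes of the rule only. Of 16 natural killer and cytotoxic T cell markers, 9 had a symbol, and at least 1 of them was found in 101 of 166 cells of library 2 (60.8%) and 76 of 130 cells of library 1 (58.5%). At least 2 were found in 30 (18.1%) and 24 (18.5%) cells. A set without CST7 and KLRF1 (NKG7, PRF1, KLRD1, KLRB1, NCR1, gzmK, gzmM or FASLG) was found in 42 (25.3%) and 43 (33.1%) cells. The summed level of the 9 markers was 292 CPM in library 2 and 479 CPM in library 1, against 1448 and 1077 CPM in cytotoxic-gene lymphocytes. In library 1 it exceeded the 421 CPM of the T cell markers. Barcodes without PTPRC held 145 CPM of these markers in library 2 and 7.92 CPM in library 1. Part of the library 2 sum was of KLRF1, which stood higher in those barcodes than in the selected cells. Only 42 of 166 and 36 of 130 cells had 0 UMIs of every listed cytotoxic gene. NKG7, a granule membrane protein gene, was found in 26 cells of library 2 (15.7%) and 25 cells of library 1 (19.2%), and CST7, which encodes the protease inhibitor cystatin F, in 34.9% and 44.6%. PRF1, which encodes perforin, had 2 UMIs in library 2 and 0 in library 1. NCR1 and EOMES, a natural killer receptor and a transcription factor of natural killer and killer T cells, had 0 UMIs in either library. A count of 0 allows up to 3 UMIs. FCGR3A, the gene of the Fc receptor CD16 and an entry of the macrophage list, was found in 70.5% and 69.2% of cells, at 524 and 861 CPM. Of the other macrophage markers with a symbol, CD14 was found in 12 cells of library 2 and 0 cells of library 1, and AIF1 in 11 and 2 cells. Over the 8 macrophage markers with a symbol, FCGR3A included, at least 1 was found in 128 of 166 and 96 of 130 cells. At least 2 were found in 29 cells of library 2 and 12 cells of library 1.

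Of the marker lists of other cell types, the 7 neutrophil and 2 erythroid markers with a symbol were at 0 UMIs in both libraries. At least 1 of the 7 plasma cell markers with a symbol was found in 102 of 166 cells of library 2 and 61 of 130 cells of library 1, at a summed 442 and 365 CPM, against 731 and 1303 CPM in barcodes without PTPRC. B cell markers were found in 50 and 14 cells, at 642 and 81.5 CPM, against 774 and 135 CPM, and most of their UMIs were of EBF1, which barcodes without PTPRC also held. Dendritic cell markers were found in 49 and 26 cells, at 282 and 219 CPM, against 223 and 357 CPM. Summed stromal markers came to 5268 CPM in library 2 and 11961 CPM in library 1, against 6440 and 26339 CPM in barcodes without PTPRC, and to 1591 and 3275 CPM in the selected cells once those over the 2% limit were left out. Summed epithelial markers came to 5208 and 127 CPM, against 9301 and 193 CPM. Most of these UMIs in the selected cells of both libraries were of 1 listed gene, ACP5, whose levels are given below. In barcodes without PTPRC that was so in library 2 but not in library 1. The part of such transcripts in the differences between the libraries below was not tested.

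**Figure D2:**
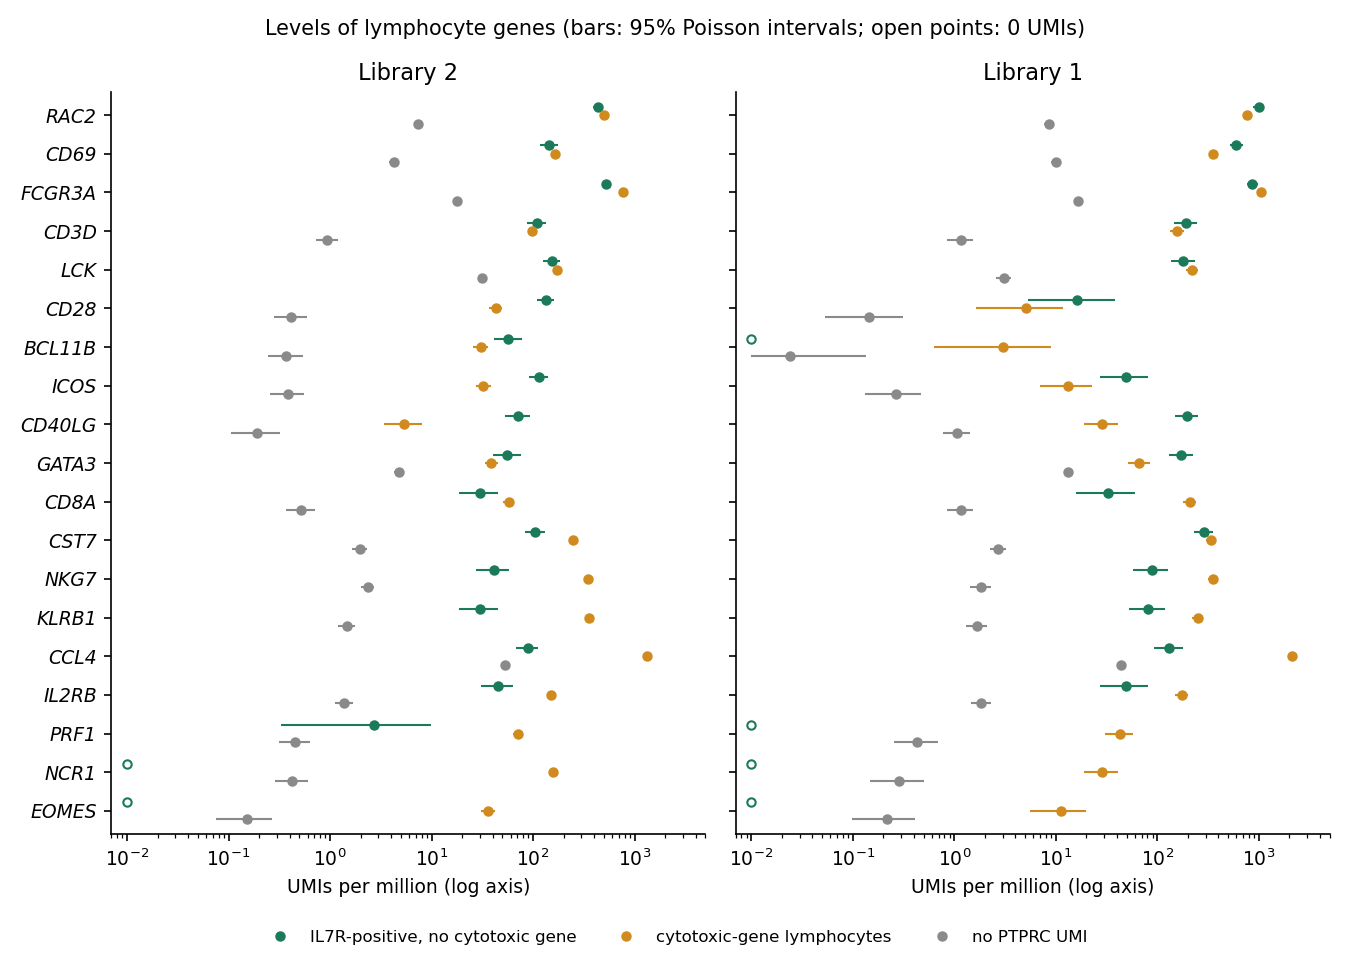
Levels of 19 lymphocyte genes in library 2 (left) and library 1 (right), in CPM on a log axis, for the IL7R-positive cells, the cytotoxic-gene lymphocytes and the barcodes without PTPRC. Bars are exact 95% Poisson intervals, and open points at the left edge mark 0 UMIs. CD3D lies close together in both kinds of lymphocyte (109 and 97.3 CPM in library 2), CD40LG is higher in the IL7R-positive cells (70.7 and 5.33 CPM), and NKG7, KLRB1 and CCL4 are lower.

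The nearest other cells were the cytotoxic-gene lymphocytes, PTPRC-positive barcodes with a UMI of CCL5, KLRK1 or XCL1 (926 in library 2 and 342 in library 1). Of those, 17.2% in library 2 and 24.3% in library 1 held an IL7R UMI. Since the rule set the cells apart by these genes, the ratios are a description of what it picked. Genes were compared at a mean of at least 50 CPM and counted beyond a 2-fold difference. Relative to cytotoxic-gene lymphocytes, 17 of 3157 genes (0.538%) were higher and 29 (0.919%) lower in library 2, and 36 of 2688 (1.34%) higher and 55 (2.05%) lower in library 1. Of 2207 genes compared in both libraries, 12 (0.544%) were lower in both and 0 (0%) higher in both. These counts were fragile: they came to between 4 and 172 genes in library 2 and between 8 and 376 in library 1 under other settings.

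The genes lower in both libraries included several of killer cells. CCL4, a chemokine released by killer cells, stood at 88.4 CPM in the IL7R-positive cells and 1332 CPM in cytotoxic-gene lymphocytes of library 2, and at 130 and 2129 CPM in library 1 (log2 ratios −3.91 and −4.03). In library 1 only 4 cells held its 40 UMIs. NKG7 was at 40.8 against 345 CPM in library 2 and 88.0 against 352 CPM in library 1. KLRB1, the gene of the receptor CD161, was at 29.9 against 359 CPM and 81.5 against 250 CPM. FCER1G, an adaptor of Fc and natural killer receptors, and IL2RB, a chain of the interleukin 2 and 15 receptors, were lower too, with log2 ratios of −1.68 and −1.74 in library 2 and −2.39 and −1.83 in library 1. TNFSF9, LAT2, HOPX and FOLR1 completed the 9 genes that met the naming rule. Of 9 measured genes on the list of cytotoxic genes outside the rule, 6 were lower beyond 2-fold in library 2, and of 7 measured in library 1, 5 were. The list medians were −1.68 and −2.00, beside 0.04 and 0.03 over all genes compared.

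In the other direction stood CD40LG, ICOS, CD28 and GATA3. None reached 100 CPM in both libraries, and they were picked after their values were seen. CD40LG encodes the ligand with which helper T cells activate B cells and dendritic cells. It was found in 32 of 166 cells in library 2 and 41 of 130 cells in library 1, at 70.7 CPM (52.8 to 92.8) and 196 CPM (149 to 252). In cytotoxic-gene lymphocytes it was at 5.33 and 28.5 CPM, 13.3-fold and 6.87-fold below the IL7R-positive cells. ICOS, a costimulatory receptor of helper T cells, was at 114 against 32.4 CPM in library 2 and 48.9 against 13.2 CPM in library 1. CD28, the main costimulatory receptor of T cells, was at 133 against 43.1 CPM in library 2 and at 16.3 against 5.08 CPM in library 1, where each group held only 5 UMIs and the interval of the log2 ratio included 0 (−0.44 to 3.80). GATA3, a transcription factor of type 2 helper T cells and innate lymphoid cells, was at 55.8 against 38.9 CPM in library 2 and 173 against 66.1 CPM in library 1. CD8A ran the other way, at 29.9 against 57.9 CPM in library 2 and 32.6 against 208 CPM in library 1.

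Against all other barcodes of the same library, which again describes the rule, 125 of 3117 genes (4.01%) were higher and 41 (1.32%) lower in library 2, and 227 of 2731 (8.31%) higher and 273 (10.0%) lower in library 1. The 15 genes with the largest ratios in both libraries were CD3D, SCML4, CAMK4, SKAP1, CXCR4, IKZF1, GPR171, SAMSN1, CYTIP, SEPTIN6, RAC2, RHOH, CD69, STK17B and CD53. SKAP1, an adaptor that couples the T cell receptor to integrins, was at 554 CPM in library 2 and 297 CPM in library 1, against 10.8 and 4.47 CPM in barcodes without PTPRC. CXCR4, a chemokine receptor, was at 809 and 574 CPM, against 13.8 and 20.6 CPM. IKZF1, the lymphoid transcription factor Ikaros, was at 212 and 114 CPM, against 2.70 and 0.888 CPM. None of the 15 exceeded cytotoxic-gene lymphocytes of both libraries beyond 2-fold.

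The cells were not uniform. The largest set had a UMI of CD3D, CD28 or CD40LG, with 100 of 166 cells in library 2 and 76 of 130 in library 1. Every cell with CD28 or CD40LG is in the set by its definition. Over all selected cells, CD28 was found in 64 of 166 in library 2 and 5 of 130 in library 1, and CD40LG in 32 of 166 and 41 of 130. CCR4, a chemokine receptor of type 2 helper and regulatory T cells, was found in 4 and 11 of these cells.

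IL17A, the gene of the cytokine interleukin 17A, was found in 1 cell of library 2 with 3 UMIs and in 2 cells of library 1 with 29 UMIs, of which 23 lay in 1 cell.

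A further 7 cells of library 1 had FCER1A, the alpha chain of the high-affinity IgE receptor, with 14 UMIs in all. FCER1A had 0 UMIs in the 166 cells of library 2, which allows up to 2.20% of cells with a UMI (exact Clopper-Pearson bound) and does not limit the share of cells that carry the gene at this depth. With the 0 set to 3 UMIs its level was 11.2-fold lower there, which leaves out the counting error of the 14 UMIs of library 1. None of these 7 cells had CD3D or CD40LG, 6 had GATA3 and 4 had PTGDR2, the prostaglandin D2 receptor of type 2 helper T cells, type 2 innate lymphoid cells, basophils and eosinophils. None was a called doublet, and their median depth was 2268 UMIs. The 3 mast cell and basophil markers with a symbol had 41 UMIs in library 2 and 24 in library 1. The small number of markers with a symbol gives these 7 cells no type.

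In library 2 another set carried much MHC class II transcript, which presents antigen to helper T cells. At least 10 UMIs of SLA-DRA1 were found in 27 of 166 cells of library 2, with up to 204 in a cell, and in 2 of 130 cells of library 1, with up to 20. The 27 cells had a median of 7586 UMIs, 16 of them were called doublets, and 15 had none of the 6 T cell markers. Of the other 139 cells of library 2, 26 were called doublets and 25 had no T cell marker. FLT3, a growth factor receptor of dendritic cells, was found in 6 of the 27 and XCR1, the chemokine receptor of cross-presenting dendritic cells, in 4. The rule did not leave out dendritic cells, and in human and mouse some of them carry IL7R when mature. Whether the 27 cells were such cells, lymphocytes or doublets was not tested. Without them the count of genes beyond 2-fold against cytotoxic-gene lymphocytes in library 2 was 172 in place of 46, with 55 higher and 117 lower. No such filter was applied to the cytotoxic-gene lymphocytes, so the groups compared were filtered unequally. The part of this unequal filter in the rise was not tested.

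**Figure D3:**
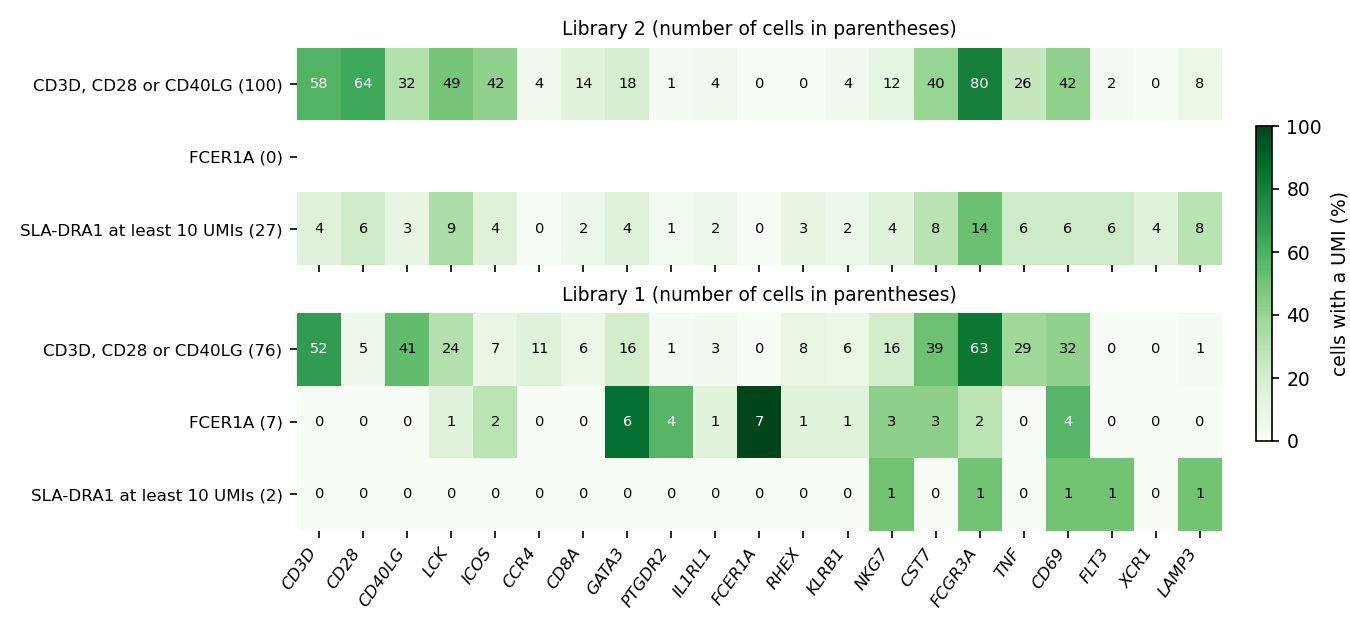
Number of cells with a UMI of each gene (columns) in 3 overlapping sets of the IL7R-positive cells (rows), in library 2 (top) and library 1 (bottom), with shading for the percentage of the set. The genes that define a set are high in it by construction. CD28 was found in 64 cells of library 2 and 5 cells of library 1. FCER1A marks 7 cells of library 1 and 0 of library 2, and FLT3 and XCR1 lie mainly in cells of library 2 with at least 10 UMIs of SLA-DRA1.

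The comparison of the libraries asks how the cells of the receptive and the pre-receptive endometrium differ. Of 3068 genes compared, 830 (27.1%) were higher and 322 (10.5%) lower beyond 2-fold in library 2, and the median log2 ratio was 0.11. The largest ratios were also high outside the lymphocytes. KDM5B, a histone demethylase gene, was at 1709 CPM in library 2 and 71.7 CPM in library 1 (log2 ratio 4.57, 3.97 to 5.25), and its log2 ratio was 4.30 in cytotoxic-gene lymphocytes and 3.96 in barcodes without PTPRC. The other 9 genes named as higher were AGPAT2, CNTNAP2, MAP3K2, PRKCE, RFX3, BACH2, FHIT, FGFR2 and CDO1, and the log2 ratios of the 10 in barcodes without PTPRC were 1.89 to 6.32. AGPAT2, PRKCE, RFX3 and FHIT had only 2 UMIs each in library 1, and CDO1 had 3. FGFR2 had 138 UMIs in 28 cells of library 2 and 0 UMIs in library 1, and was at 180 CPM in barcodes without PTPRC of library 2. Gland transcripts were seen in nearly every cell of library 2. ACP5, which encodes uteroferrin, the iron-binding secretion of the pig uterine gland, was found in 164 of 166 cells at 4389 CPM, below its 7997 CPM in barcodes without PTPRC of that library. In library 1 it was found in 29 of 130 cells at 101 CPM, above its 10.6 CPM in barcodes without PTPRC.

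The ratios were also read over the 79 genes whose level in barcodes without PTPRC was at most a 10th of that in the IL7R-positive cells, a limit chosen after seeing the data. Of these, 10 (12.7%) were higher and 34 (43.0%) lower in library 2 beyond 2-fold. Their median log2 ratio was −0.72 in the IL7R-positive cells and −0.19 in cytotoxic-gene lymphocytes. The sums include the 27 cells of library 2 with at least 10 UMIs of SLA-DRA1. Of these, 16 were called doublets and 15 had no T cell marker. Library 1 had 2 such cells, and the part of these cells in the split was not tested. The split went opposite to that over all genes. However, the limit used the levels summed over both libraries, and these same levels are compared. A gene could therefore pass through the library where it is high, so the split describes the picked genes and no conclusion is drawn from it.

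Among these, S100A4, TNF, CD69, DOK2, GFI1, CD40LG and GATA3 stood lower in library 2. S100A4, a calcium-binding protein gene of memory and effector T cells, was at 88.4 CPM (33 of 166 cells) in library 2 and 802 CPM (58 of 130 cells) in library 1, 9.07-fold lower (log2 ratio −3.18, −3.60 to −2.78). In cytotoxic-gene lymphocytes its log2 ratio was −3.10. TNF, an inflammatory cytokine gene, was at 77.5 and 466 CPM (−2.59, −3.06 to −2.14). Its share of cells was nearer, at 41 of 166 and 41 of 130, and up to 28 UMIs lay in 1 cell of library 1. With each cell weighted equally the log2 ratio was −1.87. CD69 was at 144 and 600 CPM (−2.06), and in cytotoxic-gene lymphocytes its log2 ratio was −1.11. DOK2 and GFI1, an adaptor that dampens receptor signalling and a transcriptional repressor of lymphocytes, had log2 ratios of −2.56 and −2.18, beside −0.16 and −0.24 in cytotoxic-gene lymphocytes. CD40LG was at 70.7 and 196 CPM (−1.47), and GATA3 at 55.8 and 173 CPM (−1.63).

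CD28, PTPN22, TOX, STAT4 and ICOS stood higher in library 2. CD28 was at 133 CPM in library 2, with 98 UMIs in 64 cells, and at 16.3 CPM in library 1, with 5 UMIs in 5 cells. Its log2 ratio was 3.03 (1.76 to 4.69), and 3.08 in cytotoxic-gene lymphocytes. After thinning it was found in 20.4% of cells in library 2 and 1.74% in library 1. PTPN22, a phosphatase that restrains T cell receptor signalling, was at 165 and 16.3 CPM (3.34), and TOX, a transcription factor of T cell development and persistent stimulation, at 278 and 29.3 CPM (3.24). STAT4, which transmits interleukin 12 signals, was at 335 and 62.0 CPM (2.43), and ICOS at 114 and 48.9 CPM (1.22). BCL11B, a factor of T cell identity outside the 79 genes, had 42 UMIs in 32 cells of library 2 and 0 UMIs in library 1. With the 0 set to 3 UMIs its level was 5.84-fold higher, which leaves out the counting error of the 42 UMIs. In barcodes without PTPRC, CD28, PTPN22, STAT4, ICOS and BCL11B each stood at under 4 CPM in both libraries. That statement does not cover TOX.

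**Figure D4:**
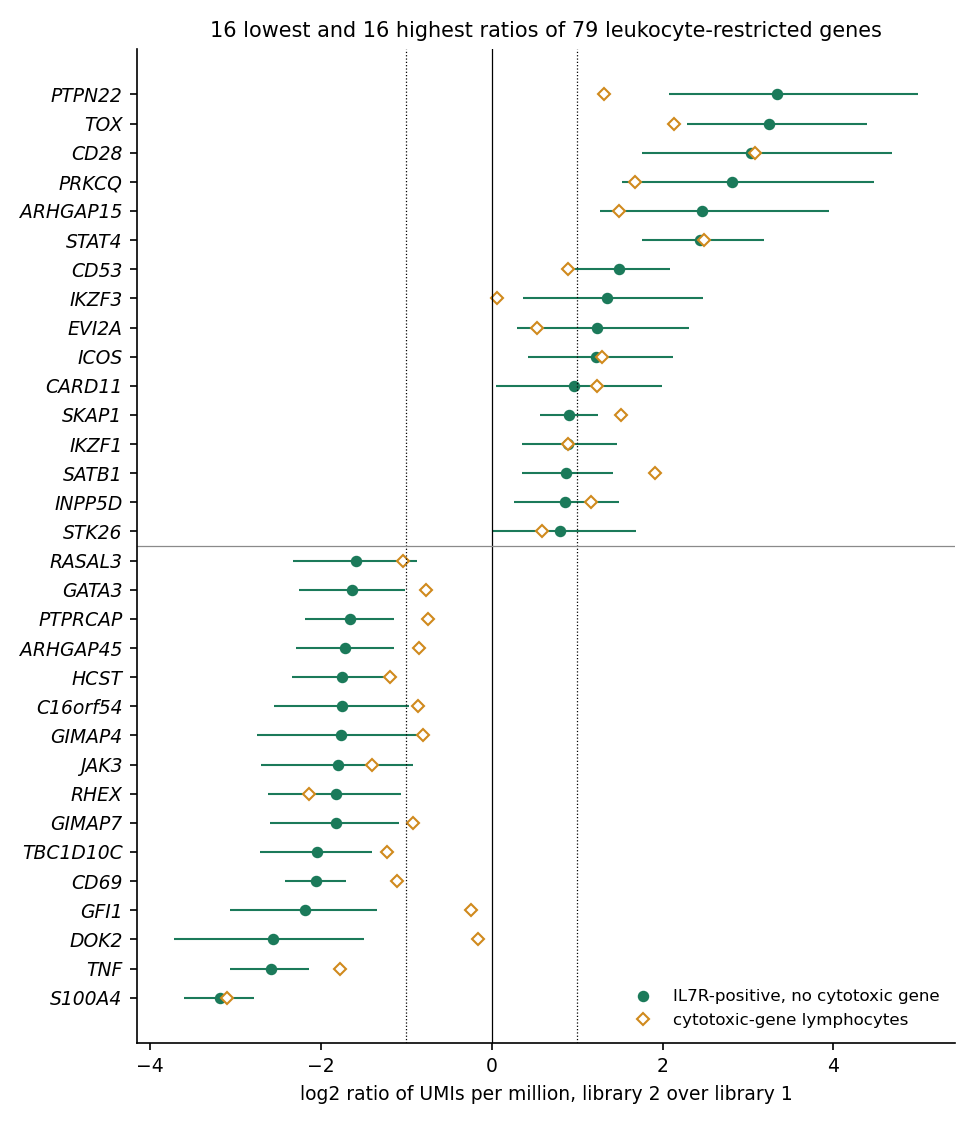
Log2 ratios of library 2 over library 1 for the 16 lowest and 16 highest of the 79 leukocyte-restricted genes, with filled points and 95% counting intervals for the IL7R-positive cells and open diamonds for cytotoxic-gene lymphocytes. Dotted lines mark 2-fold. The 79 genes were picked on levels summed over both libraries, so a gene could pass through the library where it is high. The figure describes the picked genes, and no conclusion is drawn from their split. S100A4 and CD28 have nearly the same ratio in both kinds of lymphocyte, and DOK2 and GFI1 lie below −2 in the IL7R-positive cells and near 0 in cytotoxic-gene lymphocytes.

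Genes of the interleukin 7 receptor pathway stood in both directions. Of 22 listed genes 13 had a symbol and 9 were measured, of which 1 was higher, 3 lower and 5 within 2-fold, with a median log2 ratio of −0.24. JAK1, the kinase bound to the IL7R chain, was at 635 CPM in library 2 and 649 CPM in library 1. JAK3, the kinase bound to the common gamma chain, was at 27.2 and 94.6 CPM (−1.80). CISH and SOCS1, feedback inhibitors that cytokine signalling turns on, were lower in library 2 as well. CISH was at 32.7 CPM (22 of 166 cells) and 163 CPM (30 of 130 cells), with a log2 ratio of −2.32 (−3.09 to −1.59). In cytotoxic-gene lymphocytes its ratio was −1.31, and in barcodes without PTPRC it was 1.94, the opposite direction. SOCS1 was at 76.2 and 189 CPM (−1.31), beside 0.19 in cytotoxic-gene lymphocytes and 1.74 in barcodes without PTPRC. SOCS2 ran the other way at 230 and 29.3 CPM (2.97), but its ratio was 3.08 in barcodes without PTPRC, where it stood at 244 CPM in library 2. The survival genes BCL2 and MCL1 were within 2-fold, at 185 and 371 CPM in library 2 and 137 and 404 CPM in library 1.

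The lists of lymphocyte genes had mixed directions. Of 9 measured genes of T cell receptor signalling, 4 were higher, 0 lower and 5 within 2-fold (median 0.90). CD247, a signalling chain of the receptor, was at 286 and 215 CPM, and FYN, a kinase that acts beside LCK, at 382 and 108 CPM (1.83), with a ratio of 1.93 in barcodes without PTPRC. Of 18 lymphocyte transcription factors, 9 were higher and 2 lower (median 1.12), but LEF1, the highest, was at 907 CPM in library 2, below its 973 CPM in barcodes without PTPRC. ID2, which innate lymphoid cells need, was at 375 and 893 CPM (−1.25). Of 5 measured innate lymphoid cell genes, 1 was higher (RORA, 2.19) and 3 lower (ID2, GATA3 and KLRB1), with a median of −1.25, beside 0.07 in cytotoxic-gene lymphocytes. The median depended on the minimum level. At a mean of at least 200 CPM only ID2 and RORA remained, in opposite directions, and the list median was 0.47. KLRB1 had 22 UMIs in 7 cells and 25 UMIs in 11 cells. Of 6 tissue residency genes, 2 were higher and 1 (CD69) lower. RGS1, a regulator of chemokine receptor signalling, was at 547 and 652 CPM.

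Of 16 genes of the leukocyte cytoskeleton, 2 were higher and 6 lower (median −0.50). CORO1A, an actin regulator of leukocytes, was at 252 and 551 CPM (−1.13), and RAC2 at 435 and 995 CPM (−1.19), beside −0.51 and −0.60 in cytotoxic-gene lymphocytes. Of 4 measured cytokines and ligands of the TNF family 2 were lower, TNF and CD40LG (median −1.14). The 4 guidance receptors were within 2-fold (median −0.06). GPR183, the oxysterol receptor that positions lymphocytes, was at 294 and 385 CPM (−0.39), whereas in cytotoxic-gene lymphocytes its log2 ratio was 1.22. Of 8 measured cytotoxic genes, 1 was higher and 4 lower (median −0.83). The 1 higher gene, KLRF1, had 82 UMIs in library 2 and 0 in library 1, but stood at 138 CPM in barcodes without PTPRC of library 2, above its 112 CPM in the IL7R-positive cells.

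Of 62 measured ribosomal protein genes, 34 were lower beyond 2-fold, 0 higher and 28 within 2-fold, with a median log2 ratio of −1.19. The medians in cytotoxic-gene lymphocytes and in barcodes without PTPRC were −1.22 and −1.43. Ribosomal protein genes took 7.61% of the UMIs of the IL7R-positive cells in library 2 and 15.9% in library 1. TMSB10, which encodes an actin-binding peptide, shifted likewise, at 2109 and 10676 CPM (−2.34), beside −2.20 in barcodes without PTPRC. Of the genes named as lower, RPL23A, RPLP2 and RPL36A encode ribosomal proteins, and ATP5MD, EFEMP1 and HSD11B1L were the others, with ratios of −2.50 to −2.18 and of −2.17 to −1.58 in barcodes without PTPRC.

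Among the remaining lists, the median over 27 immediate early and stress genes was −0.16 in the IL7R-positive cells and 0.76 in barcodes without PTPRC, and 5 were higher and 1 lower beyond 2-fold. FOS, an immediate early transcription factor gene, was at 3272 and 4337 CPM. The medians for 12 interferon response genes were −0.28 and 0.56, with 2 higher and 2 lower. IRF1, a transcription factor that interferons turn on, was at 566 and 183 CPM. Of 8 measured NF-kappaB genes 1 was higher and 1 lower (median 0.58), and TNFAIP3, a feedback inhibitor of that pathway, was at 663 and 470 CPM. Of 5 steroid response genes 3 were higher (median 1.16). ESR1, the estrogen receptor gene, was at 339 and 97.8 CPM but at 434 and 195 CPM in barcodes without PTPRC. Of 3 proliferation genes, STMN1 was higher (577 and 121 CPM) and PCNA lower (98.0 and 205 CPM), with a median of −0.74. The lists of circulation and homing genes (4 measured, 1 higher), of checkpoint genes (2 measured, 1 higher), of adhesion genes (3 measured, 1 lower) and of resting metabolism (11 measured, 1 higher and 3 lower) had medians of 0.87, 0.57, 0.07 and −0.62. Of the 19 lists, 5 had a median beyond 2-fold.

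**Figure D5:**
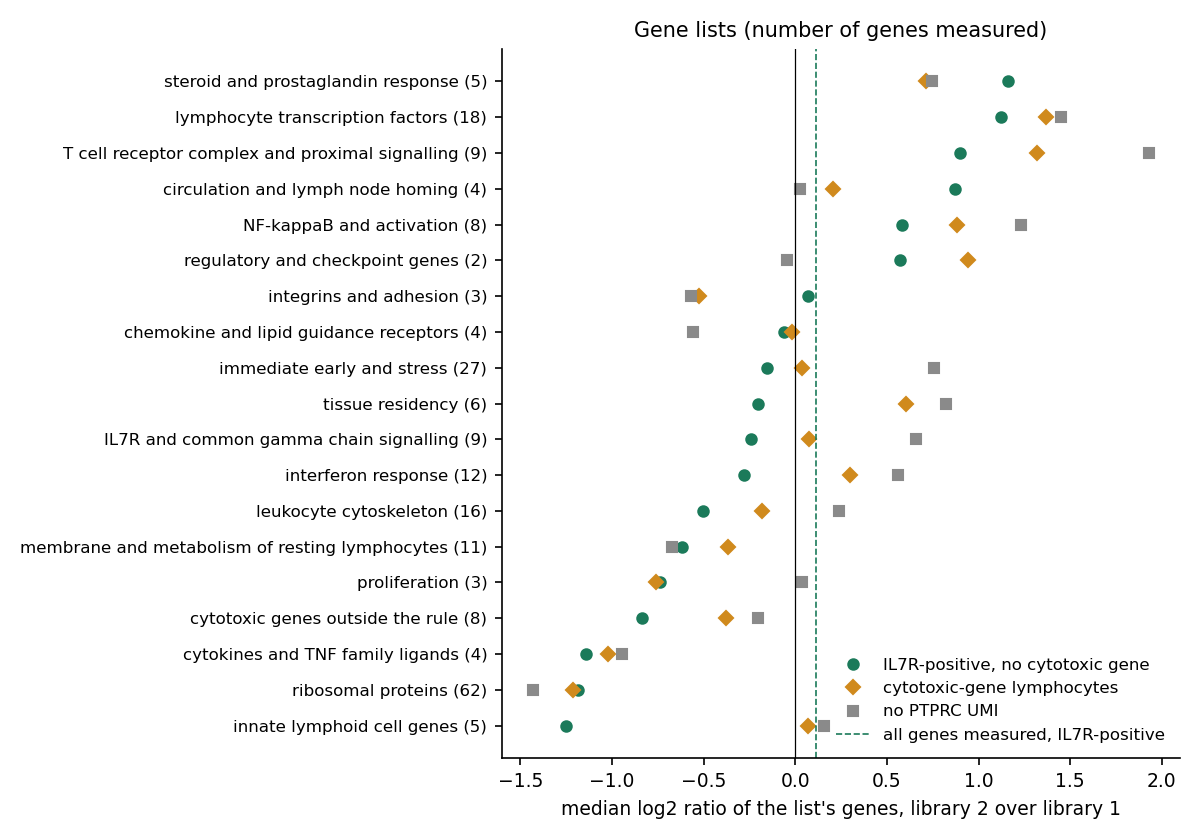
Median log2 ratio of library 2 over library 1 for each of 19 gene lists, with the number of genes measured in parentheses, in the IL7R-positive cells, the cytotoxic-gene lymphocytes and the barcodes without PTPRC. The dashed line is the median of all genes measured in the IL7R-positive cells (0.11). Ribosomal proteins lie together near −1.2 to −1.4 in the 3 kinds of barcode. The 5 innate lymphoid cell genes have a median of −1.25 in the IL7R-positive cells and 0.07 in cytotoxic-gene lymphocytes. At a mean of at least 200 CPM only ID2 and RORA remained, and the median in the IL7R-positive cells was 0.47.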

How the data were processed

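Each of the 2 deposited sparse matrices gives unnormalised UMI counts for 1 library, and its values were checked to be whole. The version of Cell Ranger is 6.1.0 per the file headers but 2.1.1 per the submitters' processing notes. Neither source states a genome build or the handling of intron reads. Of 26881 rows, 10753 carried a symbol; rows of 50 repeated symbols were summed, and 0 identifiers matched the name table. Such rows took 71.7% (library 2) and 72.8% (library 1) of the UMIs of the selected cells. Paralogs are uncertain.

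The rule, gene lists and marker lists were chosen with earlier results of these data known. UMIs were summed over cells, scaled to CPM, and compared as log2 ratios with exact conditional binomial 95% intervals. A count of 0 was set to 3 UMIs, which gives a bound that leaves out the counting error of the other count. Genes needed a symbol, no place in the rule and a mean of at least 50 CPM. Named genes needed at least 100 CPM: the 10 highest and 10 lowest between libraries that also stood at or above the level of barcodes without PTPRC, up to 10 in each direction beyond 2-fold against cytotoxic-gene lymphocytes in both libraries, the 15 highest against other barcodes, and per list the 3 highest levels and 2 largest ratios. Genes under 100 CPM and the sets of cells were picked after their values were seen. Shares have exact Clopper-Pearson intervals. With 1 library per group no test was made. Doublets were called with Scrublet in scanpy 1.11.5, and TMM factors came from edgeR 4.0.16 in R 4.3.3. The ratio step was tried on simulated sums with Poisson noise only, which cannot show how spread between cells or animals affects the intervals. Some genes of the lists are not reported here by name.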

Additional observations from a re-analysis of the deposited data

Results flagged for a closer look

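The 2 rows without a symbol that stood highest in the selected cells were outside the named genes. ENSSSCG00025028981 was at 536 CPM in the selected cells and 23.3 CPM in all other barcodes of library 2 (log2 ratio 4.52), and at 166 and 4.68 CPM in library 1. ENSSSCG00025008639 was at 332 and 16.1 CPM in library 2 (log2 ratio 4.36) and at 414 and 11.8 CPM in library 1. No table used here gives either a name. IL7R was also found outside PTPRC-positive barcodes, in 92 of 12501 barcodes without PTPRC of library 2 (0.736%, 0.594 to 0.902%) and 89 of 9143 of library 1 (0.973%, 0.782 to 1.20%), which the comparisons do not use.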

How the results depend on the processing

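The member share was 1.10% in library 2 and 1.29% in library 1. It was 0.868% and 0.866% with at least 2 UMIs of PTPRC, 0.590% and 0.767% with at least 2 of IL7R, 0.278% and 0.358% with 0 UMIs of every listed cytotoxic gene, and 0.579% and 0.822% with barcodes thinned to 1000 UMIs before selection. The count of 1152 genes beyond 2-fold between the libraries was 2003 at a mean of at least 20 CPM and 229 at 200 CPM, where more and fewer genes enter, and lay within 1.5 times of it otherwise. Against cytotoxic-gene lymphocytes in library 2, 46 genes became 101 with cells weighted equally, 168 thinned, 132 at 20 CPM, 4 at 200 CPM, 158 without called doublets, 85 with at least 2 UMIs of IL7R, 81 without cells over the 2% limit and 172 without SLA-DRA1-high cells. In library 1, 91 genes became 141 weighted equally, 292 thinned, 376 at 20 CPM, 8 at 200 CPM, 319 without doublets and 150 without cells over the limit. Leaving out SLA-DRA1-high cells was chosen after seeing the data and was applied to the selected cells only, not to the cytotoxic-gene lymphocytes. It also gave 8 in place of 5 lists with a median beyond 2-fold. The median of the innate lymphoid cell list was 0.47 at 200 CPM, where only ID2 and RORA remained, in place of −1.25. Of the named genes' log2 ratios between the libraries, none beyond 2-fold turned direction, but over all settings 89 left the 95% counting interval and 513 did not: 29 with cells thinned, 19 without doublets, 18 with cells weighted equally, 13 without SLA-DRA1-high cells, 7 with at least 2 UMIs of IL7R and 3 without cells over the limit. Of the shares of cells with a gene, 15 moved likewise when thinned. The causes were not tested beyond the numbers of genes and cells each setting leaves. No paired analysis was possible because each group held 1 library. The few, shallow cells of each library limit the precision of low genes.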

Other observations

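Cytokine genes other than TNF were found in few of the selected cells. IFNG, the interferon gamma gene, had 15 UMIs in 10 cells of library 2 and 17 UMIs in 13 cells of library 1, at 20.4 and 55.4 CPM, against 40.3 and 186 CPM in cytotoxic-gene lymphocytes. CSF2, which encodes the growth factor GM-CSF, had 6 UMIs in 4 cells and 9 UMIs in 8 cells, and LTA, the lymphotoxin alpha gene, 4 UMIs in 4 cells and 10 UMIs in 7 cells. Of 2 inhibitory receptor genes, TIGIT was seen with 8 UMIs in library 1 alone, where library 2 had 0, and CTLA4 with 3 UMIs in library 2 and 0 in library 1.

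RHEX, known in human as a partner of the erythropoietin receptor, had 25 UMIs in 7 cells of library 2 and 37 UMIs in 15 cells of library 1. It stood at 34.0 and 121 CPM in the selected cells, against 2.32 and 10.2 CPM in cytotoxic-gene lymphocytes and 0.316 and 0.264 CPM in barcodes without PTPRC. IL9R, the interleukin 9 receptor gene, had 6 UMIs in 4 cells of library 2 and 6 UMIs in 2 cells of library 1, against 1 UMI in the cytotoxic-gene lymphocytes of each library. Both genes were picked after their values were seen.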
